A study of Homo sapiens with 2 samples.

Results

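The genes described here are 35 nucleolar and rRNA processing genes, given as a list and kept where both matrices hold the gene with 50 or more UMIs over both libraries. Each UMI, a molecular barcode, stands for 1 RNA molecule caught from a cell. All 35 of the 35 listed genes passed, of 36601 genes in the files and 12128 genes that reached the same 50 UMIs. The libraries were 1 of cells treated with SP11, an inhibitor of the chaperone HSP90, at 0.8 µM, and 1 of untreated cells, both collected at 48 h. Both are labelled MOLT4, a T-cell acute lymphoblastic leukemia line in long use, and no genetic change is named. The comparison asks how transcripts for building ribosomes differed between SP11-treated and control cells. Each group had 1 library, so no difference has a replicate check, no test was made, and every interval below is a 95% interval for counting error only.

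Ribosomes are built in the nucleolus, where RNA polymerase I transcribes the long rRNA precursor. Small nucleolar RNAs guide its chemical modification: box C/D particles add methyl groups to riboses, and box H/ACA particles turn uridines into pseudouridines. Large sets of assembly factors then cut and fold the precursor into the small and the large subunit, and MYC, a transcription factor of growth, is known to drive many of the genes involved. The 35 genes fall into 6 groups by these roles: box C/D core proteins, box H/ACA core proteins, RNA polymerase I transcription, abundant nucleolar proteins, and processing of the small and of the large subunit.

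After removal of barcodes with under 200 genes or over 20% mitochondrial UMIs, the SP11 library held 852 cells with a median of 10488.5 UMIs, and the control library 1053 cells with a median of 17711 UMIs. The median mitochondrial share was 5.51% in SP11 cells and 8.94% in control cells. The T-lineage markers went against the MOLT4 label: of 31 such genes, 20 had no UMI in the SP11 library and 16 had none in the control library, and 0 reached 10 CPM (the UMIs of a gene as a share of all UMIs of its library, on the usual per-million scale) in either. CD3D, CD7, TRBC2 and BCL11B were among the 14 with no UMI in both, and the 31 genes summed to 10.2 CPM in SP11 and 11.3 CPM in control. Of 10 granulocyte precursor markers, such as ELANE and AZU1, 9 reached 10 CPM in each library, with sums of 1962 CPM in SP11 and 2653 CPM in control. MPO did not, with 5 UMIs in SP11 and 3 in control. Beyond counting error, 4 of the 9 were higher in SP11 and 5 lower. Of 20 monocyte or macrophage markers, 6 reached 10 CPM in SP11 and 7 in control, with sums of 1360 CPM in SP11 and 702 CPM in control. Their part in the differences below was not tested. The libraries shared 114 barcode sequences, 109 of them kept in both, and medians without these cells are given with the alternatives below.

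Ribosome biogenesis transcripts took a larger share of the SP11 library. The 35 genes summed to 77827 UMIs, or 0.819% of all UMIs, in SP11 cells, and to 117141 UMIs, or 0.605%, in control cells, a log2 ratio of 0.44 (0.43 to 0.45). NPM1 and NCL, the pair with most UMIs in control cells, did not share that difference: without them the other 33 genes summed to 6144 CPM in SP11 and 3810 CPM in control, a log2 ratio of 0.69 (0.67 to 0.70). Gene by gene, the median log2 ratio of SP11 to control CPM was 0.44, with a range of -0.50 to 1.34, and 26 of 35 lay above zero. Counting intervals lay wholly above zero for 25 genes and wholly below zero for 7. Of all 12128 measured genes, 3953 lay above zero, and intervals lay wholly above zero for 2779 and wholly below for 6493.

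Of the 35 genes, 14 (40%) were at least 1.5-fold higher in SP11, against 10.7% of all 12128 measured genes. At least 1.5-fold lower were 0 of 35, against 38.4% of measured genes. The median measured gene lay at a log2 ratio of -0.35, so that most genes were lower in SP11 on the CPM scale. Relative to that median gene the 35 genes had a median of 0.79, and 22 were at least 1.5-fold higher and 0 lower, against 22.5% and 24.3% of measured genes. Scaling by TMM factors or DESeq2 size factors moved every ratio up by 0.34 or 0.36, close to the shift that sets the median gene at zero. Of the 35 genes, 22 or 23 were then at least 1.5-fold higher. The share of all measured genes was not counted at these scalings. The 3 genes under the median gene were WDR12, POLR1B and TAF1D.

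**Figure D1:**
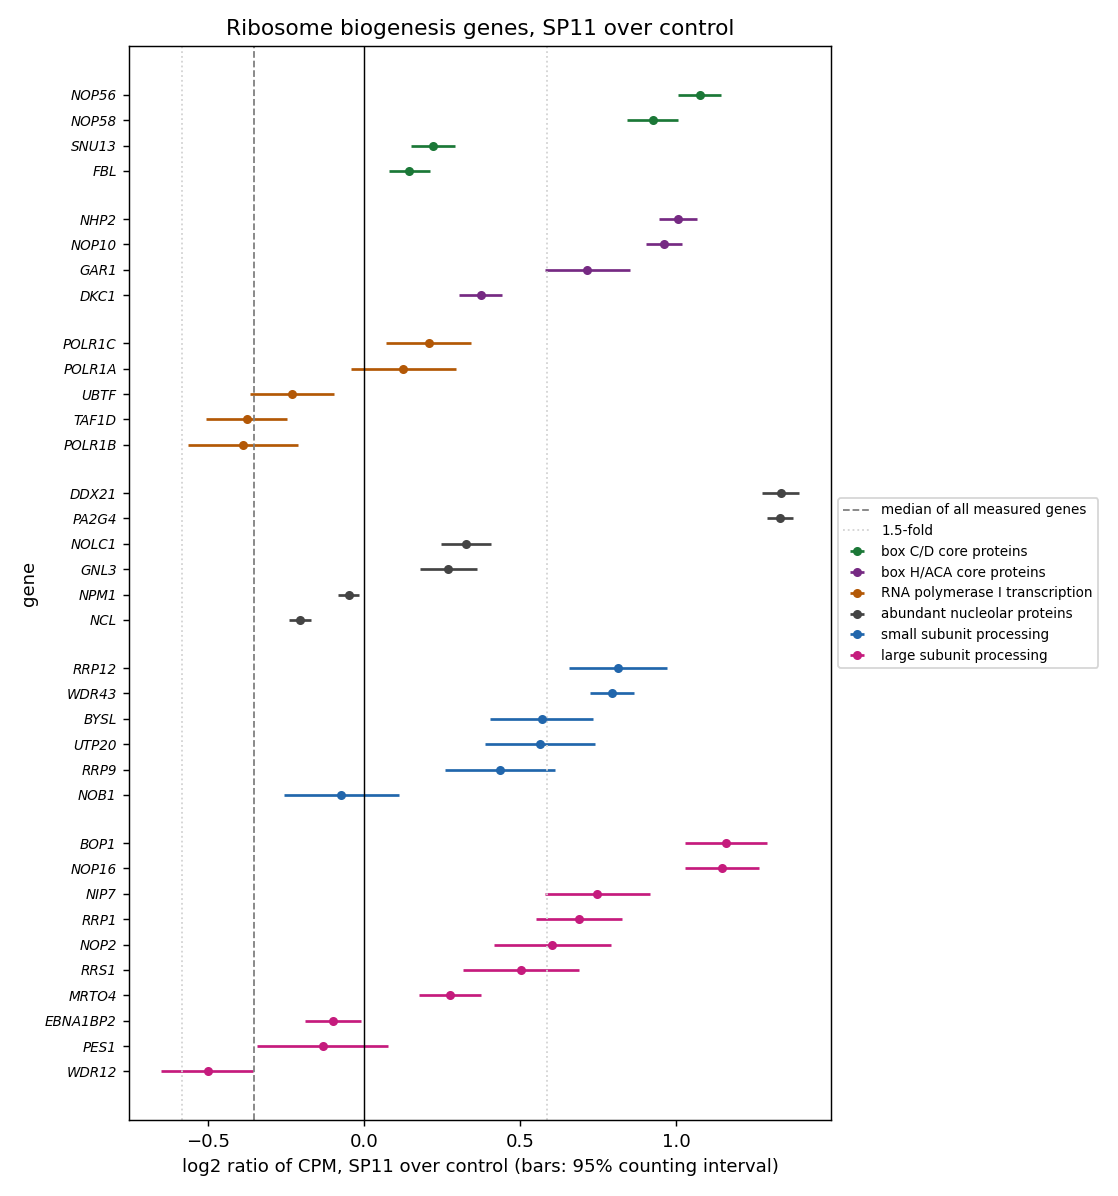
Log2 ratio of CPM (SP11 over control, horizontal axis) of each of the 35 genes by group, with 95% counting intervals as bars; the dashed line is the median measured gene at -0.35 and the dotted lines mark 1.5-fold. Ratios run down to -0.50 for WDR12 and up to 1.34 for DDX21, and no gene passes the lower 1.5-fold line.

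MYC binds the hexamer CACGTG, the E-box, which reads the same on both strands. RefSeq promoter windows on GRCh38.p14, running 250 bases before to 50 bases after a gene's start, were found for 29 of the 35 genes. Of these 29 genes, 13 (44.8%) had the hexamer in a window. So did 28 of 107 other ribosome biogenesis genes with a window (26.2%) and 1197 of 9106 measured genes with one (13.1%). Genes are counted here, and a gene with more than 1 window counts once if any of them holds the hexamer. A match is a run of letters and not shown to be a site of binding. The windows below are those of the 5 genes with a match that were at least 1.5-fold higher in SP11, then of EBNA1BP2 and PES1, which had a match and a ratio just under zero. Capitals mark the hexamer, the other letters are the bases beside it, and each sequence reads 5′ to 3′ on the strand of its gene.
DDX21, chr10:68956604-68956633, plus strand: ggccgggtgtccCACGTGgtccccggcgac
GAR1, chr4:109815781-109815810, plus strand: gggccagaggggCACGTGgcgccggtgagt
NOP10, chr15:34343130-34343159, minus strand: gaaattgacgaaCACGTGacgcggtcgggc
NOP10, chr15:34343289-34343318, minus strand: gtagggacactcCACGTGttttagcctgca
NOP2, chr12:6568242-6568268, minus strand: aggtccggattgCACGTGgagggccgc
WDR43, chr2:28894658-28894687, plus strand: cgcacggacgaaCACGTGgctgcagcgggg
EBNA1BP2, chr1:43172241-43172260, minus strand: gcgattcggtggCACGTGga
EBNA1BP2, chr1:43172790-43172819, minus strand: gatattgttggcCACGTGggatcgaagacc
PES1, chr22:30591880-30591909, minus strand: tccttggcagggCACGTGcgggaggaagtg

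Among the 29 of the 35 genes with a window, those with the hexamer had the higher median ratio. The share at least 1.5-fold higher was alike with and without it. The 13 genes with a match had a median log2 ratio of 0.56, and 5 of them were at least 1.5-fold higher. The 16 genes without one had a median of 0.17, with 6 at least 1.5-fold higher. Among the 11 genes at least 1.5-fold higher that had a window, 5 held the hexamer (45.5%), as did 8 of the other 18 (44.4%). Over all measured genes with a window, the median was -0.23 with the hexamer and -0.31 without. There, 163 of 1197 genes with it and 864 of 7909 without it were at least 1.5-fold higher. For the other ribosome biogenesis genes the medians were 0.38 and 0.14, with 8 of 28 and 15 of 79 higher.

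The box C/D core proteins had a median log2 ratio of 0.57 and all 4 lay above zero. NOP56, a scaffold of the particle, had 3459 UMIs (364 CPM) in SP11 and 3347 UMIs (173 CPM) in control, a log2 ratio of 1.08 (1.01 to 1.14). Its partner NOP58 had 248 CPM in SP11 and 130 CPM in control, a log2 ratio of 0.93 (0.84 to 1.01). Both thus took close to 2 times the control share. FBL, the methyltransferase of the same particle, differed far less, with 2861 UMIs (301 CPM) in SP11 and 5279 UMIs (272 CPM) in control, a log2 ratio of 0.14 (0.08 to 0.21) that was -0.03 in cells called G1. SNU13, which binds the guide RNA, had 268 CPM in SP11 and 229 CPM in control, a ratio of 0.22 (0.15 to 0.29).

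The box H/ACA core proteins had a median of 0.84, and 3 of 4 were at least 1.5-fold higher. On the CPM scale over all cells this was the highest median of the 6 groups, while small subunit processing was higher in G2M cells (0.81 against 0.80 for box H/ACA) and with the intronic trend subtracted (0.87 against 0.77). NHP2 had 4403 UMIs (464 CPM) in SP11 and 4472 UMIs (231 CPM) in control, a log2 ratio of 1.01 (0.95 to 1.07). NOP10, the smallest protein of the particle, had 4636 UMIs (488 CPM) in SP11 and 4854 UMIs (251 CPM) in control, a log2 ratio of 0.96 (0.90 to 1.02). These particles also bind telomerase RNA, and GAR1, which joins them late, had 84.9 CPM in SP11 and 51.7 CPM in control, a log2 ratio of 0.72 (0.58 to 0.85). DKC1, the pseudouridine synthase itself, had the smallest ratio of the group, 0.37 (0.30 to 0.44), from 290 CPM in SP11 and 224 CPM in control. Its interval did not overlap those of NHP2, NOP10 and GAR1. In the box C/D group the intervals of FBL and SNU13 overlapped each other and lay below those of NOP56 and NOP58.

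**Figure D2:**
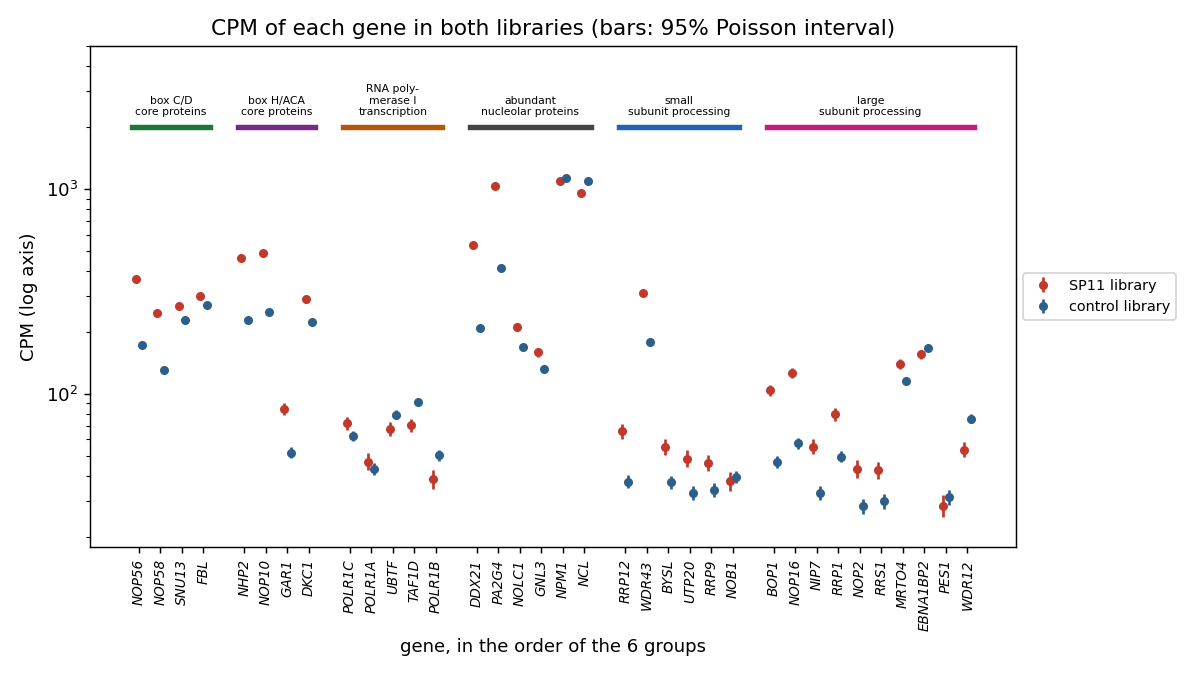
CPM (log axis) of each of the 35 genes in the SP11 library and in the control library, in the order of the 6 groups, with 95% Poisson intervals as bars. NHP2, NOP10, NOP56, PA2G4 and DDX21 stand well above their control level, while all 5 RNA polymerase I genes lie close to it, from 38.4 to 72.0 CPM in SP11 and from 42.9 to 91.3 CPM in control.

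RNA polymerase I transcription was the 1 group with a median below zero, -0.23, which lay at 0.12 relative to the median gene, 0.11 with TMM scaling and 0.13 with DESeq2 size factors. None of its 5 genes was 1.5-fold higher or lower. POLR1B, the next largest subunit after POLR1A, had 365 UMIs (38.4 CPM) in SP11 and 974 UMIs (50.3 CPM) in control, a log2 ratio of -0.39 (-0.57 to -0.21). TAF1D belongs to the selectivity factor that brings the polymerase to rDNA, and had 668 UMIs (70.3 CPM) in SP11 and 1769 UMIs (91.3 CPM) in control, a ratio of -0.38 (-0.51 to -0.25). UBTF, which binds the rDNA promoter, had 67.6 CPM in SP11 and 79.3 CPM in control, a ratio of -0.23 (-0.37 to -0.10) that was above zero with TMM and DESeq2 scaling. POLR1A, the largest subunit, had 46.8 CPM in SP11 and 42.9 CPM in control, and its interval of -0.04 to 0.29 spans zero. POLR1C, shared with RNA polymerase III, had 72.0 CPM in SP11 and 62.4 CPM in control, a ratio of 0.21 (0.07 to 0.34). Its ratio was close to those of SNU13 and FBL. With the intronic trend described below subtracted, POLR1A and POLR1C lay at 0.64 and 0.62, at least 1.5-fold higher, and in G1 cells TAF1D and POLR1B lay at -0.98 and -0.64, at least 1.5-fold lower.

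The abundant nucleolar proteins split widely, with a median of 0.30 and, on the CPM scale, the 2 highest ratios of all 35 genes. With the intronic trend subtracted, DDX21 (1.48) was still highest, while PA2G4 (1.31) came after BOP1 (1.35) and RRP12 (1.31). DDX21, an RNA helicase of rRNA transcription and processing, had 5063 UMIs (533 CPM) in SP11 and 4091 UMIs (211 CPM) in control, a log2 ratio of 1.34 (1.28 to 1.40). PA2G4, a growth regulator found on preribosomes, had 9886 UMIs (1041 CPM) in SP11 and 8003 UMIs (413 CPM) in control, a log2 ratio of 1.33 (1.29 to 1.38). Both had more UMIs in the SP11 library although it held fewer than the control library in all, 9498802 against 19375163. NPM1, a histone and ribosome chaperone, had 10406 UMIs (1096 CPM) in SP11 and 21978 UMIs (1134 CPM) in control, a ratio of -0.05 (-0.08 to -0.02). NCL, which binds rRNA precursors, had 9063 UMIs (954 CPM) in SP11 and 21335 UMIs (1101 CPM) in control, a ratio of -0.21 (-0.24 to -0.17), and both it and NPM1 lay above zero with TMM and DESeq2 scaling. NOLC1, a chaperone of small nucleolar particles, and GNL3, a nucleolar GTPase, had ratios of 0.33 and 0.27, and GNL3 was at -0.04 in G1 cells. The annotation names 49 pseudogenes after NPM1, 6 after PA2G4, 3 each after NOP56 and NIP7, and 2 each after NCL, NHP2 and PES1. NOLC1 has 1 and DDX21 has 0, and the counts of genes with pseudogenes are less certain. PA2G4, NOP2 and RRS1 each overlap 1 other gene on the same strand.

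For the small subunit, 5 of 6 genes lay above zero and the median was 0.57. RRP12, which takes part in export of the small subunit precursor, had 624 UMIs (65.7 CPM) in SP11 and 724 UMIs (37.4 CPM) in control, a log2 ratio of 0.81 (0.66 to 0.97). WDR43, a scaffold that joins the precursor while it is transcribed, had 2958 UMIs (311 CPM) in SP11 and 3480 UMIs (180 CPM) in control, a ratio of 0.79 (0.72 to 0.87). BYSL, UTP20 and RRP9 act in early or middle assembly and had ratios of 0.57, 0.56 and 0.44. RRP9 had 46.1 CPM in SP11 and 34.1 CPM in control, with an interval of 0.26 to 0.61. NOB1, the endonuclease of the last cut of small subunit rRNA, did not differ beyond counting error, with 356 UMIs (37.5 CPM) in SP11 and 764 UMIs (39.4 CPM) in control and an interval of -0.26 to 0.11.

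For the large subunit, the 10 genes had a median of 0.55 and spanned the widest range of any group, -0.50 to 1.16. BOP1, PES1 and WDR12 form 1 complex, and their ratios lay at both ends. BOP1 had 991 UMIs (104 CPM) in SP11 and 904 UMIs (46.7 CPM) in control, a log2 ratio of 1.16 (1.03 to 1.29). PES1 had 271 UMIs (28.5 CPM) in SP11 and 606 UMIs (31.3 CPM) in control, a ratio of -0.13 (-0.34 to 0.08). WDR12 had 509 UMIs (53.6 CPM) in SP11 and 1471 UMIs (75.9 CPM) in control, a ratio of -0.50 (-0.65 to -0.36). With the intronic trend subtracted, BOP1 lay at 1.35, WDR12 at 0.19 and PES1 at 0.07. NOP16, a nucleolar protein known as a MYC target, had 1207 UMIs (127 CPM) in SP11 and 1112 UMIs (57.4 CPM) in control, a ratio of 1.15 (1.03 to 1.27). NIP7, RRP1, NOP2, RRS1 and MRTO4 had ratios of 0.75, 0.69, 0.60, 0.50 and 0.27, all with intervals above zero. EBNA1BP2, a partner of early large subunit precursors, had 1487 UMIs (157 CPM) in SP11 and 3250 UMIs (168 CPM) in control, a ratio of -0.10 (-0.19 to -0.01) that was above zero with TMM and DESeq2 scaling.

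Among measured genes with introns, ratios were lower for those with more intronic bases, and this touched the 35 genes unequally. In 20 bins by intronic bases, the median log2 ratio was -0.20 in the first bin, of 605 genes with a median of 0 intronic bases, 0.12 in the bin around 1094 bases and -1.02 in the bin around 357835 bases. RRS1, with no intron, is in the first bin. The 35 genes had a median of 10955 intronic bases, against 27796 for all measured genes. The box H/ACA genes had a median of 4353 and the RNA polymerase I genes of 46474. The counting software includes intronic reads unless told otherwise, and the sources used here do not give the setting. The intronic trend joins the bin medians by straight lines on a log scale of intronic bases and is read at each gene's own length. With it subtracted, the 35 genes had a median of 0.59, against 0.79 relative to the median gene. Of the 35, 18 in place of 22 were at least 1.5-fold higher and 0 lower. The shares of the 12094 measured genes with an intronic length were 17.5% and 23.3%.

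Subtraction brought the genes with long introns up and those with short introns down, relative to where they stood against the median gene. WDR12, on chr2:202874261-203014798 with 130919 intronic bases, lay at 0.19, against -0.15 relative to the median gene. EBNA1BP2, with 103201 intronic bases, lay at 0.49 against 0.25, and UTP20, with 96484, at 1.15 against 0.92. Intronic length here is the GENCODE span of a gene, over all its transcripts, less its exons. On the minus strand, the spans of EBNA1BP2 and PES1 reach chr1:43270936 and chr22:30607083, well past their promoter matches shown above. Their values with the trend subtracted rest on those spans, and shorter lengths were not tried. NOP56, on chr20:2652593-2658393 with 851 intronic bases, lay at 0.97 against 1.43, and the box H/ACA median at 0.77 against 1.19. The RNA polymerase I median was 0.03 against 0.12. With the GENCODE spans, UBTF at -0.21, POLR1B at -0.12, NCL at -0.06 and NOB1 at -0.01 lay under zero, while the others lay above.

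**Figure D3:**
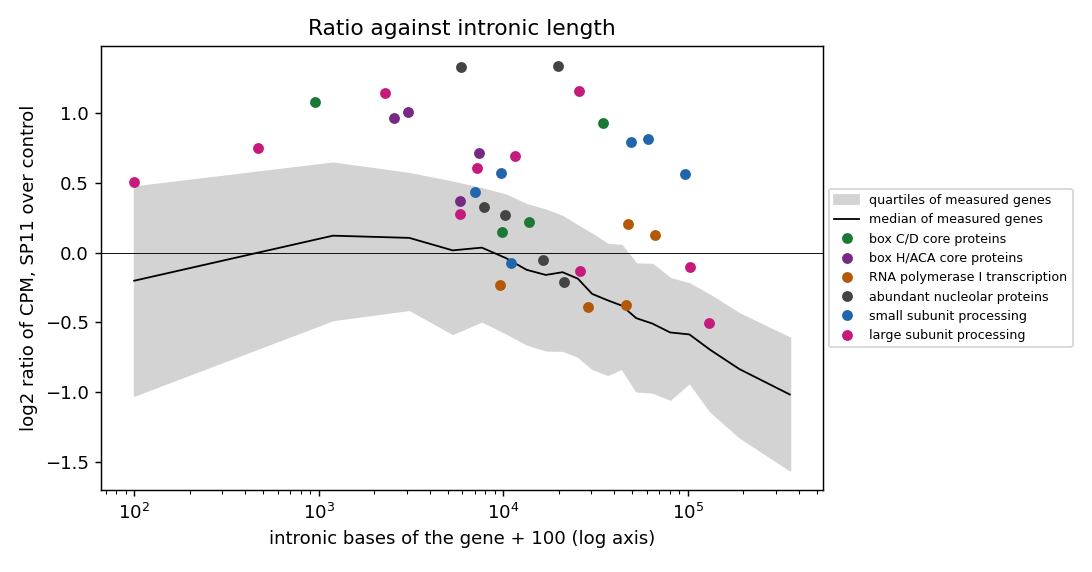
Log2 ratio of CPM (SP11 over control, vertical axis) of the 35 genes against intronic bases (log axis, 100 added), over the median and quartiles of all measured genes in 20 bins. The black line starts at -0.20 in the bin with a median of 0 intronic bases and falls from 0.12 in the bin around 1094 bases to -1.02 in the last bin, and most of the 35 genes lie above it, DDX21 by 1.48 and UBTF under it at -0.21.

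Several of the genes carry small nucleolar RNAs within their span, and placement in introns was not checked. On the same strand, GENCODE 44 places 32 such RNAs inside 8 of the 35 genes, with 8 in TAF1D, 6 in GNL3, 5 in NOP56, 4 in NOP58, 3 each in NCL and WDR43, 2 in DKC1 and 1 in POLR1C. SNORD56 and SNORD57 in NOP56 guide methylation, and SNORA56 in DKC1 guides pseudouridylation, the reactions their hosts' proteins take part in. Such a match was not general, since NOP56 also holds SNORA51, a box H/ACA RNA by name. Some of the RNAs, such as the 1 in POLR1C, have only an identifier and no symbol. The 8 host genes had a median log2 ratio of 0.32 with 3 at least 1.5-fold higher, and the other 27 a median of 0.50 with 11. The hosts also had more intronic bases, a median of 27922 against 9784 for the others. The part of intronic length in this difference was not tested. Host genes were thus found on both sides, from NOP56 at 1.08 to TAF1D at -0.38.

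DDX21 and PA2G4 had the 2 highest ratios within every phase call. Over cells called G1, S and G2M by Seurat scoring in each library alone, the median of the 35 ratios was 0.28, 0.31 and 0.53. DDX21 lay at 1.45, 1.21 and 1.31 and PA2G4 at 1.32, 1.23 and 1.41 in G1, S and G2M. NHP2 was steady at 1.01, 1.01 and 1.02. TAF1D lay at -0.98, -0.60 and 0.00, and POLR1B at -0.64, -0.61 and -0.17. The genes at least 1.5-fold lower were TAF1D, POLR1B and PES1 in G1 and WDR12, POLR1B and TAF1D in S, named after their values were seen, and none in G2M, against 39.9%, 41.2% and 36% of measured genes in G1, S and G2M. At least 1.5-fold higher were 12, 12 and 16 of the 35, against 13.4%, 11.3% and 11.6% of measured genes.

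Cell by cell, the higher share was spread over the SP11 library. Cells were brought to an equal depth of 4400 UMIs by random thinning, in 769 SP11 cells and 963 control cells. A further 83 SP11 and 90 control cells were shallower and do not enter. The summed UMIs of the 35 genes averaged 36.0 ± 8.78 in SP11 cells and 26.6 ± 7.40 in control cells (SD over cells, which are not replicates). The middle 50% of cells held 30 to 42 in SP11 and 21 to 31 in control, with ranges of 5 to 62 in SP11 and 6 to 56 in control. Of the SP11 cells, 545 (70.9%) lay above the control upper quartile and 670 (87.1%) above the control median. The variance was 2.14 times the mean in SP11 and 2.06 times in control, so cells varied beyond counting noise to a like degree in both libraries.

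**Figure D4:**
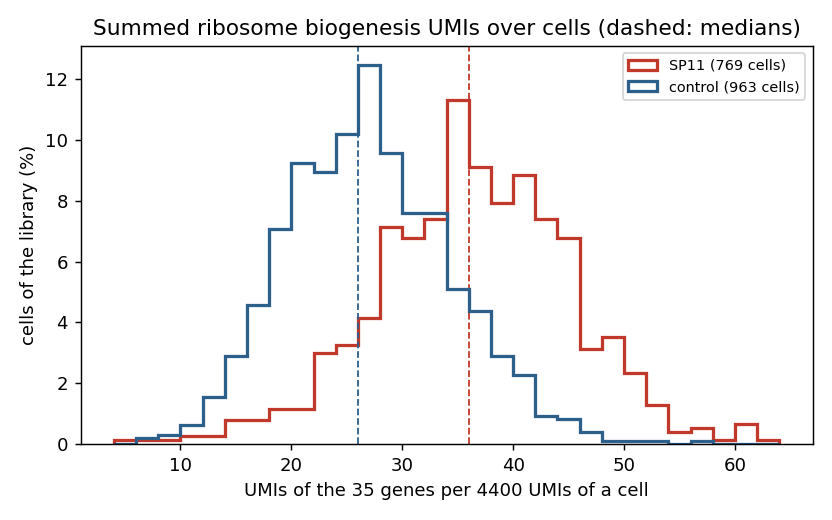
Distribution of the summed UMIs of the 35 genes per cell (horizontal axis, at 4400 UMIs a cell) as a percent of the cells of each library (vertical axis), with dashed medians at 36 for SP11 and 26 for control. The SP11 curve is shifted to the right as a whole, with no separate second peak.

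Single genes showed the shift in the share of cells with a UMI at that depth. NOP56 was found in 78.0% of SP11 cells (74.9 to 80.9) and 51.1% of control cells (47.9 to 54.3), and DDX21 in 88.0% of SP11 cells (85.5 to 90.2) and 58.3% of control cells (55.1 to 61.4). NHP2 was found in 84.9% of SP11 cells (82.2 to 87.4) and 61.2% of control cells (58.0 to 64.3). TAF1D went the other way, with 23.7% of SP11 cells (20.7 to 26.8) and 33.1% of control cells (30.2 to 36.2). NPM1 and NCL were found in 97.0% to 99.3% of cells in both libraries, where the share can show little. Unthinned, NOP56 was found in 89.1% of SP11 and 84.0% of control cells, DDX21 in 93.7% of SP11 and 84.0% of control cells, NHP2 in 92.0% of SP11 and 90.1% of control cells, and TAF1D in 47.5% of SP11 and 73.7% of control cells. A background share from free RNA was not measured. The matrices hold 864 SP11 and 1076 control barcodes, the numbers of cells the study states as captured. Every cell type uses these genes, so no cell type could serve as a blank.

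The groups were only loosely tied to each other over cells. Each group's summed UMIs correlated with those of the other 5 groups at 0.10 for RNA polymerase I and 0.15 for box H/ACA in SP11 cells, up to 0.27 for box C/D and 0.32 for abundant nucleolar proteins. In control cells the values were 0.05, 0.18, 0.25 and 0.26. Over the 595 pairs of genes the median correlation was 0.018 in SP11 and 0.022 in control. These are descriptions over cells of 1 library with few UMIs per gene.

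The summed UMIs differed little by phase call. SP11 cells held means of 34.4 in 197 G1 cells, 35.7 in 242 S cells and 37.1 in 330 G2M cells, and control cells 26.6 in 302, 27.6 in 326 and 25.5 in 335. Every SP11 phase thus lay above every control phase. Cells with a higher mitochondrial share held fewer of these UMIs, with correlations of -0.13 in SP11 and -0.26 in control. With totals that leave out the mitochondrially encoded genes, the median of the 35 ratios was 0.38. Then 13 genes were at least 1.5-fold higher, against 14 with all UMIs in the totals. The share of all measured genes was not counted with these totals.

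MYC and the ribosome biogenesis genes lay on opposite sides between the libraries. MYC had 781 UMIs (82.2 CPM) in SP11 and 2427 UMIs (125 CPM) in control, a log2 ratio of -0.61 (-0.73 to -0.49), or -0.26 relative to the median gene and -0.72 with the intronic trend subtracted. At 4400 UMIs a cell, 217 of 769 SP11 cells (28.2%, 25.1 to 31.5) and 377 of 963 control cells (39.1%, 36.1 to 42.3) had a MYC UMI. MYC protein and its activity were not analysed here.

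Within each library, cells with MYC UMIs held slightly more of the 35 genes' UMIs. SP11 cells with 0, 1 and 2 or more MYC UMIs held means of 35.2 (552 cells), 37.4 (144 cells) and 39.0 (73 cells). Control cells held 26.3 (586 cells), 26.2 (253 cells) and 28.8 (124 cells), in a thinning draw that gave control the lowest correlation of 50. Averaged over the 50 draws, cells with and without a MYC UMI held 37.6 and 35.3 in SP11, and 27.6 and 25.7 in control. SP11 cells with no MYC UMI thus held more than control cells with 2 or more. The Pearson correlation over cells was 0.145 in SP11 and 0.095 in control, and Spearman's was 0.150 in SP11 and 0.077 in control. These weak values depend on which UMIs the thinning draws: over 50 draws they averaged 0.112 in SP11 (range 0.057 to 0.177) and 0.148 in control (0.095 to 0.216), and SP11 was the higher in only 6 draws. No order of the libraries can be read from them.

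**Figure D5:**
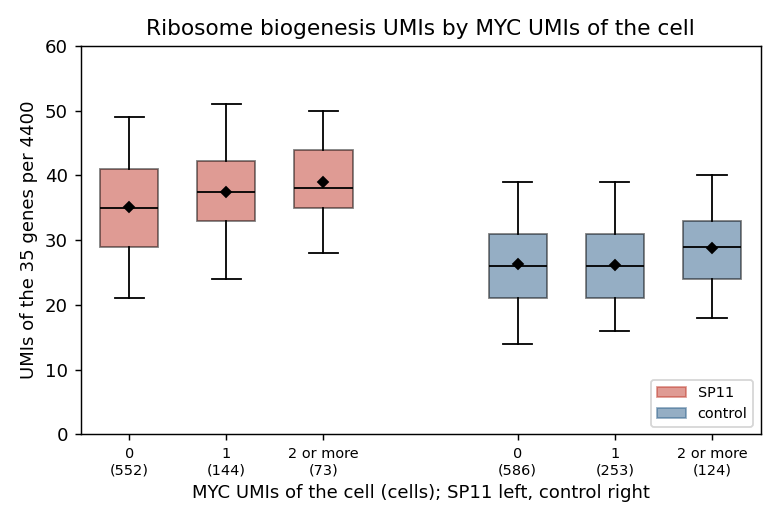
Summed UMIs of the 35 genes per cell (vertical axis, at 4400 UMIs a cell) by the MYC UMIs of the cell (horizontal axis, number of cells in parentheses), SP11 left and control right; boxes show quartiles, lines the 5th to 95th percentile and diamonds the mean. Means run from 35.2 to 39.0 in SP11 and from 26.2 to 28.8 in control.

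Gene by gene, correlations with MYC were small in size but more often above zero than those of all genes compared. The genes compared were those with 50 or more UMIs in the thinned cells of a library, 7132 in SP11 and 8510 in control. The 35 genes had a median correlation with MYC of 0.030 in SP11 cells, where 30 of 35 lay above zero, and of 0.019 in control cells, where 26 did. Over all genes compared the medians were 0.000 in both, with 50.3% above zero in SP11 and 50.2% in control. In each library 5 of the 35 lay above the 95th percentile of the genes compared, which was 0.069 in SP11 and 0.062 in control. With so few UMIs per cell, such correlations are no finding for a single gene.

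The wider pathway, 126 measured genes of 128 listed that are not among the 35, had a median log2 ratio of 0.20. Of these, 29 (23.0%) were 1.5-fold higher or more while 8 were as much lower, against 10.7% and 38.4% of all measured genes. Set against the median gene the counts were 60 (47.6%) and 0, against 22.5% and 24.3%. Other genes of the small subunit processome, the large particle that first forms on the precursor, had a median of 0.36 with 12 of 42 higher and 1 lower. PWP2 and NOC4L were highest at 1.17 and 1.05, with 54 and 248 UMIs in SP11 and 49 and 244 in control, and FCF1 was lowest at -0.77. Other large subunit factors had a median of 0.28 with 12 of 46 higher and 3 lower, from RRP15 at 1.36 and the helicase DDX27 at 1.25 to MDN1, the giant ATPase of late assembly, at -0.89. The exosome, which trims rRNA ends, had a median of -0.14 with 1 of 14 higher, EXOSC4 at 1.13, and 1 lower, EXOSC7 at -0.88.

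Other RNA polymerase I subunits and factors had a median of 0.12, with 3 of 15 higher and 1 lower, TAF1A at -0.81. The 3 were POLR2L at 1.38 (327 CPM in SP11 and 125 CPM in control), POLR2F at 1.13 (257 CPM in SP11 and 118 CPM in control), both shared with RNA polymerases II and III, and CD3EAP, a subunit of RNA polymerase I alone, at 0.83 (99.1 CPM in SP11 and 55.8 CPM in control). The 9 measured factors that assemble small nucleolar particles had a median of -0.05, unlike the particle proteins they handle. RUVBL2 and NUFIP1 lay at 0.60 and 0.50, ZNHIT3, PIH1D1 and RPAP3 between 0.05 and -0.05, SHQ1 at -0.17, ZNHIT6 at -0.41, RUVBL1 at -0.62 and NAF1 at -0.85. RUVBL1 and RUVBL2 form 1 ATPase ring, with 75.9 CPM in SP11 and 117 CPM in control for RUVBL1, and 171 CPM in SP11 and 113 CPM in control for RUVBL2.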

How the data were processed

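The authors deposited, for each of the 2 libraries, a count matrix (UMIs, genes by barcodes). Per the file headers it is output of Cell Ranger 7.1.0. GRCh38 (hg38) is the build in the submitters' notes on processing. Groups came from the treatment label. Barcodes with at least 200 genes and at most 20% mitochondrial UMIs were kept, the limits that the study's methods state. This left 852 SP11 and 1053 control cells, which are not the counts the study states after filtering; what accounts for the gap is not known. The kept cells held 9498802 UMIs in SP11 and 19375163 in control. A gene's counts over kept cells were added up and scaled to the total of those cells (CPM). Intervals are exact: Clopper-Pearson for the split of a gene's UMIs between the libraries, Poisson for a CPM, binomial for a share. Genes past 1.5-fold are counted by size alone, with no call.

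The members, the other gene lists and the rule for named genes (all 35, with values for the ends of each group and of each other list) were chosen with earlier results of these data known. Cells were thinned to 4400 UMIs at random. Phases came from Seurat 5.3.0 (R 4.3.3; 43 S and 54 G2M genes), doublet calls from Scrublet in scanpy 1.11.5 (24 SP11 and 43 control barcodes, kept), TMM factors from edgeR 4.0.16 and size factors from DESeq2 1.42.0, the last 2 for scaling only. Positions, introns and hosted RNAs came from GENCODE 44, promoters from RefSeq. Alternatives were other scalings, cell filters, weights, minimums and thinning depths, removal of doublet calls, phase calls alone and subtraction of the intronic trend. The interval code was tested on simulated data before use. NOPCHAP1, of the other lists, was not matched by that symbol.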

Additional observations from a re-analysis of the deposited data

How the results depend on the processing

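With 1 library per group, no replicate could be left out, and counting error is the one error measured. No paired analysis was possible because each group had 1 library. TMM and DESeq2 scaling raised all medians, to 0.78 and 0.80 for the 35 genes. They were 0.92 and 0.94 for box C/D, 1.18 and 1.20 for box H/ACA, and 0.11 and 0.13 for RNA polymerase I. Abundant nucleolar proteins lay at 0.64 and 0.66, the small subunit at 0.91 and 0.93, and the large subunit at 0.90 and 0.92. At least 1.5-fold higher were 22 and 23 genes, with no share of all measured genes counted. A median counts as moved when it left its band, from the median lower to the median upper counting bound of its genes. This band is not a counting interval of the median itself. With the intronic trend subtracted, the medians that moved were box C/D at 0.66, RNA polymerase I at 0.032 and the small subunit at 0.87. Values within phase calls alone were added after seeing the data. In G1 cells the medians were 0.28 for the 35 genes, 0.45 for box C/D and 0.12 for abundant nucleolar proteins, in S cells 0.50 for box C/D and 0.16 for abundant nucleolar proteins, and 3 genes were at least 1.5-fold lower in each. In G2M cells box C/D lay at 0.68, RNA polymerase I at 0.0011, abundant nucleolar proteins at 0.53 and the small subunit at 0.81.

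The correlation with MYC was 0.067 in SP11 with cells thinned to 3000 UMIs. In control it was 0.164 at 3000 UMIs, 0.178 at 6000 UMIs, 0.212 without thinning and 0.171 in G1 cells. No median left its band or changed sign with removal of Scrublet calls, use of all barcodes or a minimum of 4400 UMIs. The same held for a mitochondrial maximum of 10%, totals without mitochondrial genes and an equal weight for every cell. It also held for removal of the shared barcodes, added after seeing the data. Without those barcodes the median was 0.38 for the 35 genes and -0.15 for RNA polymerase I. Within the bands, equal weight took the median of the 35 genes from 0.44 to 0.35 and that of RNA polymerase I from -0.23 to -0.10. Minimums of 200 UMIs or 1 UMI for a gene kept all 35. The mean over 50 thinning draws and the sum without NPM1 and NCL were also added after seeing the data. The cause of these shifts was not tested.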

Other observations

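Over the thinned cells of each library, the genes whose UMIs followed the summed UMIs of the 35 genes most closely were named after their values were seen. In SP11 cells, over 7098 genes, the mitochondrial chaperonin HSPD1 (r = 0.33), the mRNA-binding SERBP1 (0.30), the cochaperonin HSPE1 (0.23) and the chaperone HSP90AB1 (0.23) were highest. In control cells, over 8476 genes, HSPD1 was again highest (0.27), followed by HNRNPA2B1 (0.24), HNRNPA3 (0.22), HSP90AB1 (0.22) and HSP90AA1 (0.20). HSP90AB1 lay at 4142 CPM in SP11 and 3268 CPM in control, and HSPD1 at 1332 CPM in SP11 and 1133 CPM in control.

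At the other end, FTL was among the 10 lowest genes in both libraries. In SP11 cells the lowest correlations were those of the ferritin chains FTH1 (-0.42) and FTL (-0.40), of the calcium-binding S100A4 (-0.36) and S100A8 (-0.32), and of FCER1G (-0.32), a receptor subunit of myeloid cells. In control cells they were those of the mitochondrially encoded MT-ND4 (-0.26), MT-CO2 (-0.25) and MT-CO1 (-0.24) and of the nuclear RNA MALAT1 (-0.23), with FTL at -0.21. All cells were thinned to 1 total, so a gene with many UMIs lowers the others' counts by itself, and the difference between the libraries was not tested.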
